A study of Mus musculus with 4 samples.

Results

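The data address whether loss of Cdk5r1 changes the transcriptional response of mouse macrophages to bacterial lipopolysaccharide (LPS). Marrow was taken from 6-week-old males and cultured for 7 days with GM-CSF at 25 ng/ml, after which the LPS groups received E. coli LPS at 100 ng/ml for 6 h. Wildtype and CDK5R1 knockout cells both carry the strain label B6.129S4-Cdk5r1tm1Lht/J. Each of 4 Agilent arrays held wildtype RNA labelled with Cy3 and knockout RNA labelled with Cy5, with 2 arrays of unstimulated (basal) cells and 2 of LPS-treated cells. The labels call the arrays biological replicates and name no animals, so p-values measure the spread between these arrays. The value studied is a difference of ratios. For each gene the log2 knockout to wildtype ratio was averaged over the 2 LPS arrays, and the mean of the 2 basal arrays was subtracted. It equals the LPS response of knockout cells minus that of wildtype cells. The dyes were never swapped, but a probe's constant dye effect drops out of this difference if it gives signal at rest and after LPS. All 39429 non-control probes entered, and 23568 genes or unnamed accessions had enough signal to be tested.

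Cdk5r1 encodes p35, a short-lived activator that binds CDK5, an unusual cyclin-dependent kinase that needs p35 or p39 rather than a cyclin. CDK5 is best known from neurons, and p35 is also present in myeloid cells. LPS binds TLR4 on macrophages and dendritic cells and sets off a MyD88 arm that induces cytokines through NF-kappaB and MAP kinases, and a TRIF arm that induces type I interferon, whose receptor then switches on antiviral genes. IL-10, which is induced later in the same response, restrains it.

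The genotype ratio differed between LPS and basal arrays for 95 of the 23568 genes, or 0.403% (limma, Benjamini-Hochberg adjusted p under 0.05). The ratio was higher under LPS for 66 of them (0.28%) and lower for 29 (0.123%). Most genes lay close to no difference: the median over all tested genes was -0.002 on the log2 scale, with the 5th percentile at -0.29 and the 95th at 0.30. The smallest difference that passed was 0.71 and the largest 3.92, and the median standard error (SE) was 0.11. At least a 2-fold difference was seen for 62 of the 95, of which 46 were higher and 16 lower. At an unadjusted p under 0.05 there were 1237 higher and 1208 lower genes. By comparison, LPS changed 9633 genes in wildtype cells and 9634 in knockout cells (40.9% in each). Of these, 4284 rose and 5349 fell in wildtype cells and 4478 rose and 5156 fell in knockout cells. With channels scaled to their 75th percentile the same responses gave 11504 rises and 4264 falls, and 10670 rises and 4218 falls. Leaving out basal replicate 1 gave totals of 5593 in wildtype and 4606 in knockout cells, and leaving out basal replicate 2 gave 5191 and 3891.

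**Figure D1:**
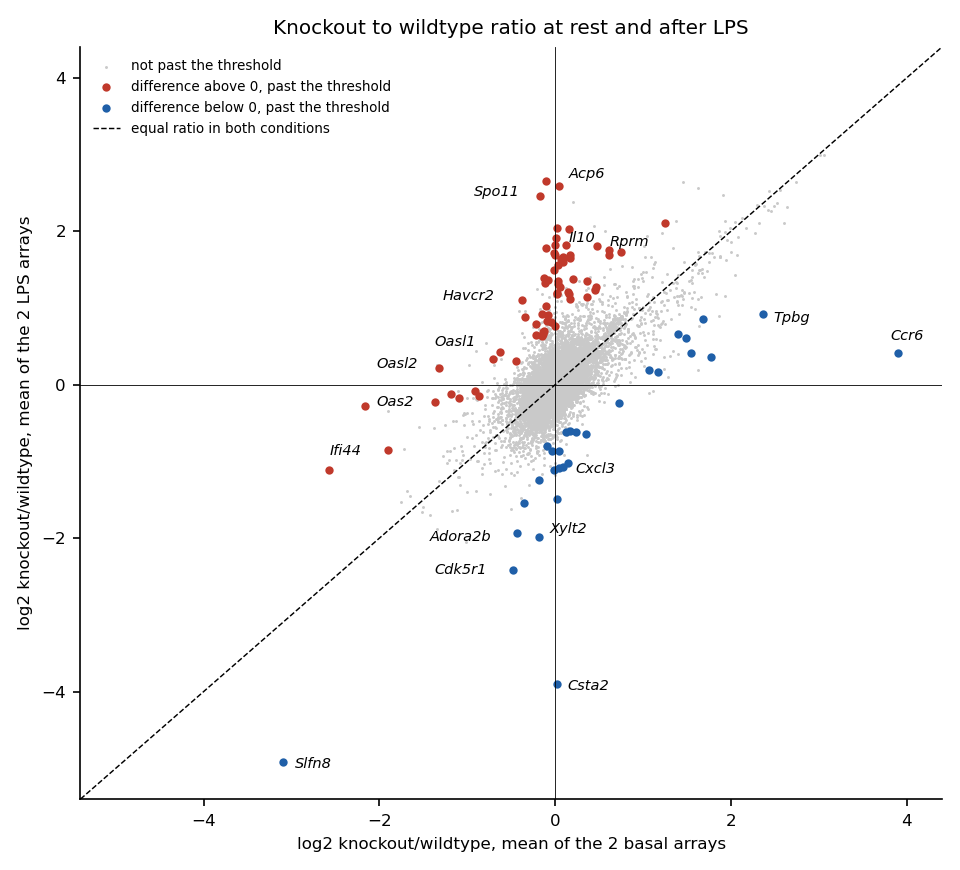
Mean log2 knockout to wildtype ratio of the 2 basal arrays (horizontal) against that of the 2 LPS arrays (vertical) for the 23568 tested genes. Red points (66) lie above and blue points (29) below the dashed line of equal ratios and passed the limma threshold; Csta2, Ccr6 and Slfn8 are the outlying blue points.

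Without LPS replicate 1 the 95 differences were 1.01 times as large at the median, and without LPS replicate 2 0.992 times. The spread then came from the basal pair alone. The number of genes past the threshold depended strongly on the arrays and signals used. It was 5 without LPS replicate 1 and 4 without LPS replicate 2, and 4 of the 95 genes remained each time, with Acp6, Ccr6 and Spo11 (dark in all groups but knockout LPS) among them. Leaving out basal replicate 1 gave 198, and leaving out basal replicate 2 gave 76. With the scanner's own processed signals in place of background correction and loess, 6 genes passed (4 of them among the 95), and the 95 differences were 1.48 times as large at the median. Median centring in place of loess gave 228 genes. The sign of the difference was the same in all 95 genes under each of these settings. In all 95, both LPS ratios lay on one side of both basal ratios, so leaving out 1 array could not change the sign. The SEs rest on 2 residual degrees of freedom, and 2 estimates from separate array pairs (LPS replicate 1 minus basal replicate 1, and LPS replicate 2 minus basal replicate 2) correlated at r = 0.25 across all genes, or 0.39 with the basal arrays exchanged. Genes are not independent replicates.

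For most of the 95 genes the genotypes stood further apart after LPS than at rest: the mean ratio was larger in size under LPS for 73 and larger at rest for 22. The same split over all genes was not counted. Some of the 95, such as Il10 and Spo11, were dark in both genotypes at rest. Their basal ratio rests on no signal, so the split is in part set by dark spots. The ratio itself passed the threshold under LPS alone for 63 genes, at rest alone for 11, in both conditions with the same sign for 17 and with opposite signs for 4. Over all genes, 12.4% passed under LPS and 4.87% at rest. A symbol was known for 74 of the 95, and 21 were known by accession alone. In 53 genes, 32 higher and 21 lower, both channels were well above background on every array. In 37, at least 1 genotype and condition had no array well above background and so gave a bound only. Of 19 other kept probes of 18 of these genes, 15 had the same sign, and 8 of those were at least 0.5 times as large.

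Cdk5r1 itself was among the genes with a lower ratio under LPS. In log2 normalised intensity, its wildtype level was 9.58 and 9.79 at rest and 11.36 and 11.93 with LPS. The knockout channel read 9.21 and 9.20 at rest and 8.81 and 9.64 after LPS. The knockout was lower at rest, where the mean ratio of -0.48 passed narrowly (limma adjusted p = 0.040), and after LPS the wildtype channel alone was high. The log2 ratio went from -0.37 and -0.59 to -2.55 and -2.29, a difference of -1.94 ± 0.13 (SE, n = 2 arrays per condition, limma adjusted p = 0.0043). A second probe gave -1.53 ± 0.10. The interaction follows from the wildtype response, 1.96 ± 0.22 (adjusted p = 0.0033), against 0.02 ± 0.29 in the knockout (adjusted p = 0.96). The position of the probes relative to the deletion was not known, so the signal left in the knockout channel is no check of the genotype.

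Of the 11 tested genes of the p35 and CDK5 complex list, Cdk5r1 alone passed, and the median difference was 0.03. Cdk5, the kinase, had ratios of 0.01 and 0.11 at rest and 0.06 and 0.05 after LPS. Its difference was -0.01 ± 0.10 (limma adjusted p = 0.99), and 0.04 without basal replicate 2. Cables1, which links CDK5 to the kinase ABL, stood at -0.43 ± 0.15 (adjusted p = 0.37). Among 43 tested genes within 25 places of Cdk5r1 in the RefSeq gene order, 1 passed, the Schlafen gene Slfn8 at 23 places. Of all genes 0.403% passed.

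**Figure D2:**
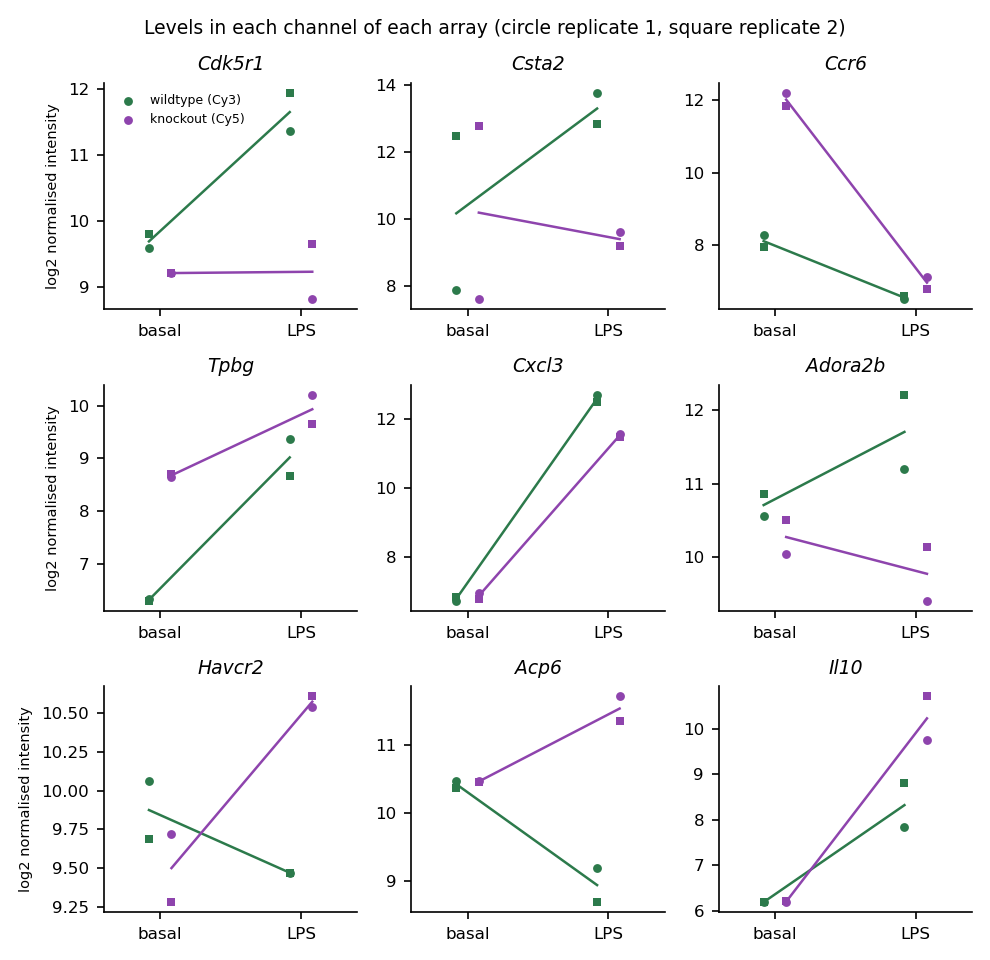
Level in log2 normalised intensity (vertical, scale set per gene) at rest and after LPS for 9 genes, in the wildtype channel (green) and the knockout channel (purple); points are single arrays and lines join the means of 2. Lines that part from left to right (Cdk5r1, Acp6) or come together (Ccr6, Tpbg) mark the interaction, and the 2 basal arrays of Csta2 lie far apart in both genotypes.

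Among receptor genes, Ccr6 had the largest difference. It encodes the receptor for the chemokine CCL20, which guides dendritic and lymphoid cells. The wildtype channel read 8.28 and 7.94 at rest and 6.51 and 6.59 after LPS, and the knockout channel 12.19 and 11.84 at rest and 7.13 and 6.80 after LPS. Knockout cells were far higher at rest and close to wildtype after LPS. The ratio went from 3.91 and 3.90 to 0.62 and 0.20, a difference of -3.49 ± 0.15 (limma adjusted p = 0.0012). Ccr6 fell in both genotypes, with responses of -1.56 ± 0.15 in wildtype and -5.05 ± 0.19 in knockout cells (adjusted p = 0.0022 and 5.9e-04). The call held without any one array, but not with the processed signals (-3.13, adjusted p = 0.23). In the list of 19 chemokine and chemoattractant receptors, Ccr6 was the single call, with a list median of -0.07.

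Tpbg, which encodes a membrane glycoprotein that modulates Wnt signalling, followed the same course with a rise in place of the fall. Wildtype levels were 6.33 and 6.30 at rest and 9.37 and 8.67 after LPS, against 8.65 and 8.71 and then 10.21 and 9.66 in the knockout. The knockout was higher on every array, by more at rest. The ratio went from 2.31 and 2.41 to 0.85 and 1.00, a difference of -1.44 ± 0.11 (limma adjusted p = 0.0063). With the processed signals the difference was -3.19 (adjusted p = 0.049). Fam160a1 had the same pattern by its brightest probe (-1.13 ± 0.12, adjusted p = 0.027), but its other probe gave 0.03, and the mean of the probes did not pass (-0.55, adjusted p = 0.11).

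Adora2b encodes the adenosine A2B receptor, which raises cyclic AMP. Its ratio was -0.51 and -0.35 at rest and -1.79 and -2.07 after LPS. The knockout was lower on every array and much lower under LPS. The difference was -1.50 ± 0.13 (limma adjusted p = 0.010), and the other probe gave -0.87 ± 0.11. P2ry6, the receptor for the nucleotide UDP, went the other way: its ratio moved from -0.19 and -0.09 to 0.63 and 0.76 (0.83 ± 0.10, adjusted p = 0.040). Both belong to the list of 31 adenosine, ATP and cAMP signalling genes, of which these 2 passed, with a median of 0.03. Ffar2, a receptor for short-chain fatty acids, fell in both genotypes under LPS, with responses of -2.64 ± 0.12 in wildtype and -3.69 ± 0.12 in knockout cells. Its ratios were -0.09 and -0.29 at rest and -1.13 and -1.35 after LPS (-1.05 ± 0.12, adjusted p = 0.035).

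The largest difference of all was that of Csta2, a member of the stefin family of cathepsin inhibitors. Its ratio was -0.27 and 0.31 at rest and -4.15 and -3.65 after LPS, a difference of -3.92 ± 0.23 (limma adjusted p = 0.0028). The levels behind these ratios varied between arrays of one condition. Wildtype cells read 7.87 and 12.47 at rest and 13.75 and 12.84 after LPS, and knockout cells 7.61 and 12.77 and then 9.61 and 9.19. On basal replicate 1 both genotypes were low, and on basal replicate 2 both were high. Neither genotype's LPS response passed (adjusted p = 0.17 and 0.75). Stefin genes are near-identical copies, so the probe may read several of them. Csta2 was the single call among 13 tested stefins and cystatins, whose median was -0.11. Cstdc4 was next, at -0.61 ± 0.12 (adjusted p = 0.13).

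Both genotypes differed by more than 1 log2 unit in the same direction between the 2 basal arrays in 5 of the 95 genes (5.26%), against 52 of all 23568 (0.221%). Besides Csta2 these included Pigx and Bex6. Pigx encodes a subunit of the enzyme that adds mannose to GPI anchors. Its wildtype levels were 10.93 and 12.44 at rest and 11.70 and 11.35 after LPS, and its knockout levels 10.92 and 12.50 and then 10.24 and 9.84. The genotypes were equal at rest on each array and apart after LPS, with ratios of -0.01, 0.06, -1.46 and -1.51. The difference was -1.51 ± 0.10 (limma adjusted p = 0.0038), and -1.34 ± 0.10 by a second probe. Its neighbour Cep19, a centrosome gene, stood at -1.13 ± 0.11 and Bex6, 3 places from Pigx, at -1.10 ± 0.13 (adjusted p = 0.016 and 0.035). The other probe of Bex6 gave -0.47. Between the LPS arrays, 4 of the 95 genes (4.21%) differed in this way against 157 of all genes (0.666%), and they were Arhgef10l, Cnn3, H1f2 and Plet1. The part of such differences between cultures in these results was not tested.

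Xylt2 encodes the enzyme that starts glycosaminoglycan chains on proteoglycans. Its ratio was -0.09 and -0.28 at rest and -2.14 and -1.83 after LPS. LPS lowered it in knockout cells by 1.49 ± 0.15, while the wildtype value was 0.31 ± 0.22. The difference was -1.80 ± 0.14 (limma adjusted p = 0.0069), but the other probe gave -0.46 and the mean of the probes -1.13. Tns1, the focal adhesion protein tensin, fell in both genotypes, and its difference was -1.19 ± 0.12 (adjusted p = 0.024). Its other probe gave -0.32, and the mean of the probes, -0.76, did not pass (adjusted p = 0.075). Xylt2 was the single call among 32 adhesion and matrix genes. Plet1, an epithelial surface protein also found on dendritic cells, stood at -0.99 ± 0.11 (adjusted p = 0.032), with -0.50 by its other probe.

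Slfn8, of the interferon-responsive Schlafen family, was the most depleted gene in the knockout after LPS. Wildtype levels were 10.26 and 9.38 at rest and 14.89 and 14.96 after LPS, against 6.82 and 6.62 and then 10.09 and 9.93 in the knockout. It rose in both genotypes and was lower in the knockout on all 4 arrays. The ratio went from -3.44 and -2.76 to -4.81 and -5.03, a difference of -1.82 ± 0.22 (limma adjusted p = 0.036). Its other probe gave 0.18 and 0.26 at rest and -0.84 and -0.35 after LPS. That difference was -0.81 ± 0.17, and the ratio at rest had the opposite sign. With the processed signals the brightest probe gave -0.93. The 7 other tested Schlafen genes all lay above 0, and the family's median was 0.11.

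Among genes with a symbol that were above background throughout, the largest higher ratio under LPS was that of Acp6, which encodes a phosphatase of lysophosphatidic acid. Wildtype levels were 10.47 and 10.37 at rest and 9.19 and 8.69 after LPS, and knockout levels 10.47 and 10.45 and then 11.71 and 11.35. The genotypes were equal at rest and moved in opposite directions. Acp6 fell by 1.48 ± 0.19 in wildtype and rose by 1.07 ± 0.15 in knockout cells (limma adjusted p = 0.0050 and 0.0080). The ratio went from 0.00 and 0.08 to 2.52 and 2.66, a difference of 2.55 ± 0.10 (adjusted p = 0.0012). The call held without any one array, but not with the processed signals (2.75, adjusted p = 0.075).

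Havcr2, the gene of the checkpoint receptor TIM-3, changed the sign of its genotype ratio. The ratio was -0.34 and -0.41 at rest and 1.07 and 1.14 after LPS, and both means passed (limma adjusted p = 0.030 and 4.0e-04). The knockout channel was lower at rest and higher after LPS, with no overlap, but the zero of each ratio carries the probe's dye effect, and only the difference is free of it where that effect is constant. The knockout response was 1.08 ± 0.18 (adjusted p = 0.011) and the wildtype response -0.40 ± 0.15 (adjusted p = 0.096). The difference was 1.48 ± 0.10 (adjusted p = 0.0042). Of 18 T-cell costimulation and checkpoint ligand genes Havcr2 alone passed, with a median of 0.08. Slamf1, a self-binding receptor, missed at 0.78 ± 0.12 (adjusted p = 0.077). Timd4, a phosphatidylserine receptor of the same gene family as Havcr2 and 6 places from it, is among the 95 genes, but it was tested only because of knockout cells after LPS, the one group well above background. Its LPS level in knockout cells was at least 2.21-fold higher than in wildtype cells.

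Cnn3, the actin-binding calponin 3, also changed sign, from -0.52 and -0.73 to 0.53 and 0.33. The difference was 1.05 ± 0.12 (limma adjusted p = 0.033), and its other probe gave 0.59 ± 0.13. Tnfrsf25, the death receptor for the cytokine TL1A, had ratios of 0.11 and -0.27 at rest and 1.16 and 1.57 after LPS. It rose in both genotypes, by 1.76 ± 0.12 in wildtype and 3.20 ± 0.14 in knockout cells, so the difference of 1.45 ± 0.18 (adjusted p = 0.037) was a larger rise. Rprm, a mediator of cell cycle arrest, likewise rose by 1.34 ± 0.20 and 2.68 ± 0.24, with a difference of 1.33 ± 0.12 (adjusted p = 0.012). With the processed signals the value for Rprm was 0.83 (adjusted p = 0.38).

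Bcl2l11, the pro-apoptotic gene of BIM, rose by 2.66 ± 0.30 in wildtype and 3.49 ± 0.32 in knockout cells. Its ratio was -0.21 and -0.05 at rest and 0.68 and 0.73 after LPS (0.84 ± 0.10, limma adjusted p = 0.037). It was the single call among 25 cell death genes. The exchange factor gene Arhgef10l (1.22 ± 0.12), the adaptor gene Afap1l2 (1.17 ± 0.16), Wdr90 (1.14 ± 0.13), the ghrelin gene Ghrl (1.32 ± 0.15) and the olfactory receptor gene Olfr1115 (1.51 ± 0.16) were the other large positive differences in genes above background throughout, apart from the interferon-induced ones. The linker histone gene H1f2 was higher by 1.07 ± 0.10, while H1f4, 6 places away in the histone cluster, was lower by 0.82. Histone and olfactory receptor transcripts resemble one another, so these probes may read sister genes.

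**Figure D3:**
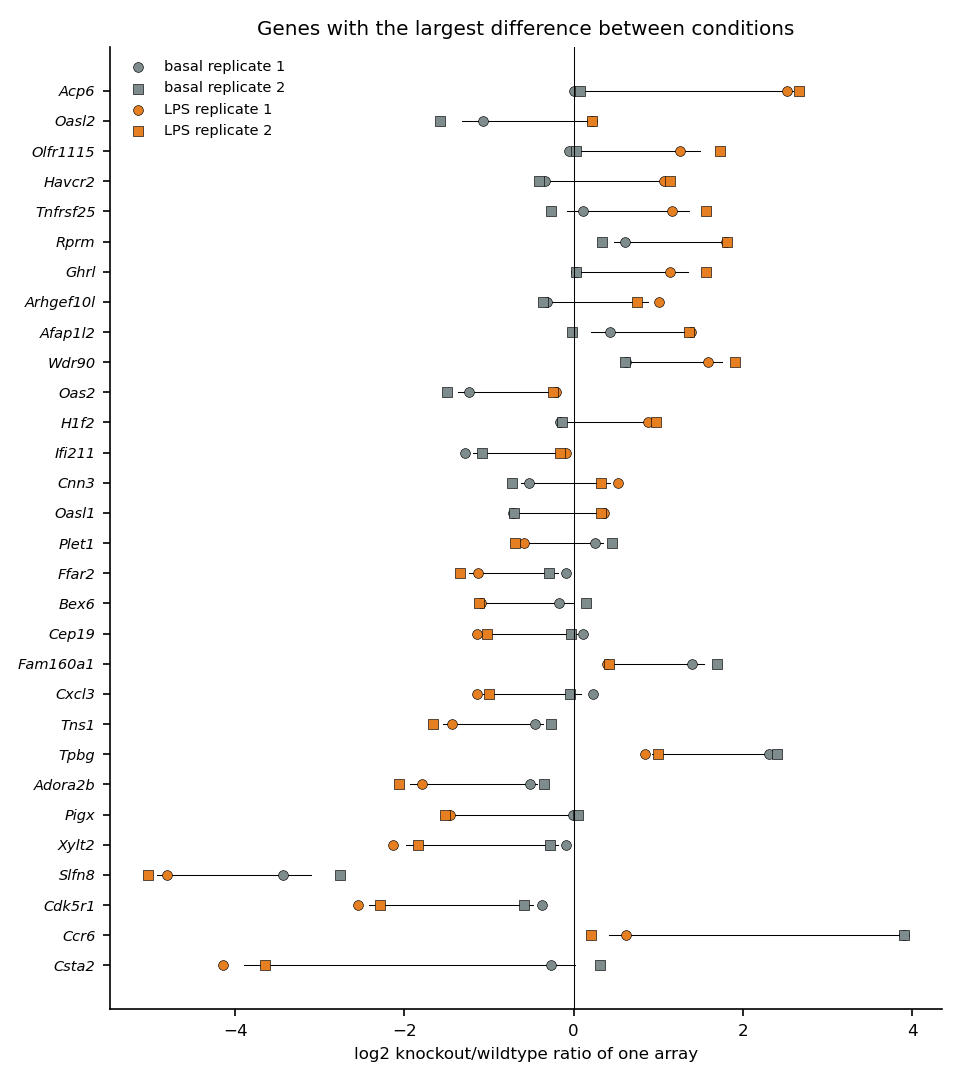
Log2 knockout to wildtype ratio of each array for the 15 genes with the largest positive and the 15 with the largest negative difference among those above background throughout. Grey symbols are basal arrays and orange symbols LPS arrays (circle replicate 1, square replicate 2), and the line joins the condition means; in all 30 genes both LPS ratios lie to one side of both basal ratios, as the choice of genes requires.

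Of 39 tested interferon-stimulated genes, 5 had a higher ratio under LPS and 0 a lower one, against 0.28% and 0.123% of all genes. The list median was 0.40, against -0.002 over all genes, and 36 of 39 lay above 0. Both LPS ratios exceeded both basal ratios in 32 of them, which held for 20% of all genes. The list's median ratio was -0.52 at rest and -0.10 under LPS, so that by their medians knockout cells lay lower at rest and near wildtype after LPS. LPS induced the list in both genotypes, with median responses of 4.11 in wildtype and 4.58 in knockout cells. With median centring the list median was 0.70.

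The oligoadenylate synthetase family held most of these calls. These enzymes sense double-stranded RNA and make short adenylate chains that activate the nuclease RNase L, and the OAS-like proteins are their relatives. All 10 tested members lay above 0, with a median of 0.63, and 5 passed: Oasl2, Oas2, Oasl1, Oas1a and Oas1f. Oasl1 and Oasl2 are adjacent genes, and Oas2, Oas1f and Oas1a lie within 7 places of one another. The family's sequences are alike, so its probes may in part read each other's transcripts.

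Oasl2 had ratios of -1.07 and -1.57 at rest and 0.22 and 0.22 after LPS. Its level rose by 4.87 ± 0.31 in wildtype and 6.42 ± 0.48 in knockout cells, and the difference was 1.54 ± 0.17 (limma adjusted p = 0.027). Oasl1 went from -0.72 and -0.71 to 0.35 and 0.32, and both means passed with opposite signs. Its wildtype level was 9.31 and 8.47 at rest and 17.34 and 17.30 after LPS, and its knockout level 8.59 and 7.76 and then 17.70 and 17.62. The difference was 1.05 ± 0.09 (adjusted p = 0.012), and 1.63 with median centring. Knockout cells were lower at rest on both arrays and slightly higher after LPS on both.

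Oas2 kept a small deficit after LPS, with ratios of -1.23 and -1.50 and then -0.21 and -0.25 (1.14 ± 0.12, limma adjusted p = 0.025). Oas1a went from -0.92 and -0.90 to -0.13 and -0.04 (0.82 ± 0.10, adjusted p = 0.035), and its other probe gave 0.59 ± 0.10. Oas1f stood at 0.72 ± 0.10 (adjusted p = 0.049). Of the other members Oas1g was the lowest, at 0.08 ± 0.12 (adjusted p = 0.87) and -0.05 without LPS replicate 1. Ifi44, an interferon-induced gene of unsettled function, stayed lower in the knockout throughout: -2.02 and -1.78 at rest and -0.90 and -0.82 after LPS (1.04 ± 0.12, adjusted p = 0.029). Ifi211, of the family of interferon-inducible DNA sensors, went from -1.28 and -1.08 to -0.09 and -0.16 (1.06 ± 0.11, adjusted p = 0.024).

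Not all interferon-stimulated genes shared the difference. Rtp4 and Isg15, the ubiquitin-like modifier, were large but narrowly missed, at 1.55 ± 0.22 and 1.33 ± 0.19 (limma adjusted p = 0.055 for each). Ifit1, an effector that binds viral RNA, stood at 0.34 ± 0.10 (adjusted p = 0.27) and Irf7, the factor that amplifies interferon production, at 0.50 ± 0.09 (adjusted p = 0.12). Stat2, a subunit of the factor that carries the type I interferon signal, was at -0.04 ± 0.12 (adjusted p = 0.95). Xaf1 had the lowest value, -0.37 ± 0.11 (adjusted p = 0.29).

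**Figure D4:**
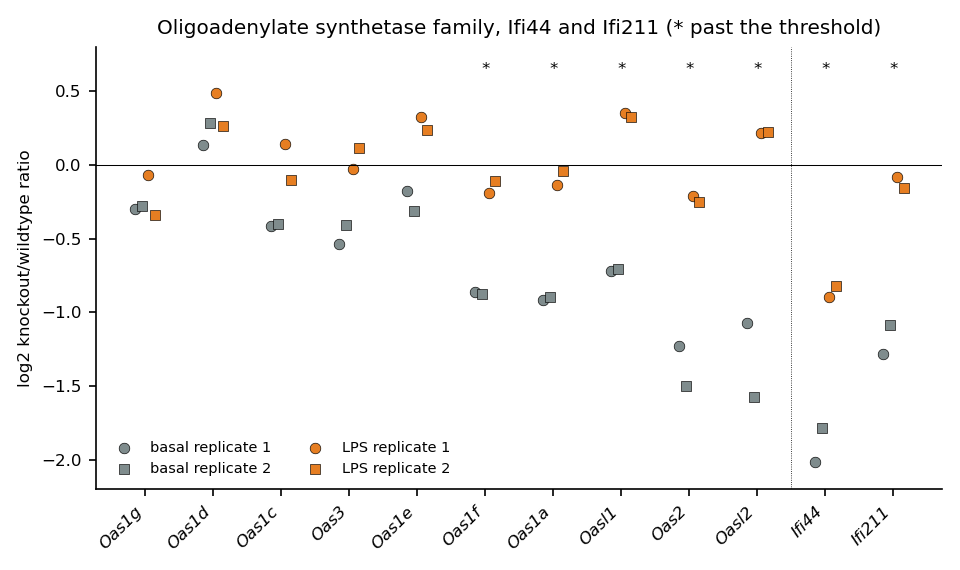
Log2 knockout to wildtype ratio of each array for the 10 tested members of the oligoadenylate synthetase family, ordered by their difference, and for Ifi44 and Ifi211. Grey symbols are basal and orange LPS arrays (circle replicate 1, square replicate 2), and asterisks mark genes past the limma threshold; the marked genes lie below 0 at rest and, apart from Ifi44, near or just above 0 after LPS.

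Promoter windows from RefSeq (GRCm38.p6), covering 250 bases before and 50 after the annotated start, are shown for 4 of the interferon-induced genes that passed, the largest group of calls among the lists. The windows were searched on both strands for GAAANNGAAA, the core of the interferon-stimulated response element, printed in capitals where found. Oas1a on the minus strand at chr5:120907476-120907775 holds 2 overlapping matches, and Ifi211 on the minus strand at chr1:173912997-173913296 holds 1. Oasl1 (plus strand, chr5:114922990-114923289) and Oasl2 (plus strand, chr5:114896684-114896983) hold none in these windows. Nor do the windows of Oas1f and Ifi44, which also passed and are not printed, so 2 of 6 hold it.
Oas1a: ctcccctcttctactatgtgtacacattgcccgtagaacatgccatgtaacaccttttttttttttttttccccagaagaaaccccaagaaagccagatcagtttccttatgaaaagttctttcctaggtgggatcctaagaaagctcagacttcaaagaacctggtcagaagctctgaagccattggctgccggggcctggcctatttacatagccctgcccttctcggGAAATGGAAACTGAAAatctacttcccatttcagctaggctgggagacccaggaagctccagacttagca
Ifi211: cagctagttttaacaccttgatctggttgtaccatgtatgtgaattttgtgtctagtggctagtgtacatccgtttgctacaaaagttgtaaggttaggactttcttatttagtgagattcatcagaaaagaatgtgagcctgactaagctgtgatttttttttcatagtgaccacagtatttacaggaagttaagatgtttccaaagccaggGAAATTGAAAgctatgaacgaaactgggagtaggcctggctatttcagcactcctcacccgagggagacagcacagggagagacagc
Oasl1: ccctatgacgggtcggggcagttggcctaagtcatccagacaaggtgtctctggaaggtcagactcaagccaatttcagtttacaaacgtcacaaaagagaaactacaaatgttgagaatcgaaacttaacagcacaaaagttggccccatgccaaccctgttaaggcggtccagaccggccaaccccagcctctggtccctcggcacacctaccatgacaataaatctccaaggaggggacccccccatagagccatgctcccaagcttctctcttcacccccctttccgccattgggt
Oasl2: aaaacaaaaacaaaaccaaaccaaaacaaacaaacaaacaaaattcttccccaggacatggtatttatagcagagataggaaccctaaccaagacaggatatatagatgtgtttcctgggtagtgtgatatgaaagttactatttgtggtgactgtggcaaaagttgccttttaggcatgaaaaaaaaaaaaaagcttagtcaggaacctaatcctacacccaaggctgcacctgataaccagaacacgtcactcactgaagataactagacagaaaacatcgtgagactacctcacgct
Genes with a window were counted once, as holding the motif if any of their windows did. The motif was present in 14 of 29 such genes of the interferon-stimulated list (48.3%) and in 4 of 7 of the oligoadenylate synthetase family (57.1%). It was present in 1079 of all 27025 genes with a window (4%), in 2 of 40 of the genes called higher (5%) and in 1 of 22 of those called lower (4.5%). The genes with an altered LPS response as a whole thus held the motif at about the share of all genes.

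Il10, the gene of the anti-inflammatory cytokine, was the sole call among 20 genes of IL-10 and its signalling, whose median was 0.19 and 0.03 without LPS replicate 2. At rest neither genotype was well above background, with levels of 6.19 to 6.21 on both basal arrays. After LPS the wildtype level was 7.84 and 8.80 and the knockout level 9.74 and 10.71. The rise was at least 4.38-fold in wildtype and at least 16.3-fold in knockout cells. The LPS ratios were 1.90 and 1.91. The gene was tested only because of its LPS arrays, so no fitted difference is given. Since the basal ratio rests on dark spots, a dye effect of this probe need not cancel.

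Pro-inflammatory cytokines held 0 calls among 25 tested genes, against 0.403% of all genes. Their median was -0.02, and members went both ways. The ratios of the conditions did not overlap for 9 of the 25 upward and 9 downward. These are larger shares than the 20% and 21.5% of all genes. Tnf had ratios of -0.11 and -0.26 at rest and -0.49 and -0.42 after LPS, a difference of -0.27 ± 0.10 (limma adjusted p = 0.44) that was 0.05 with median centring. Il6 stood at -0.29 ± 0.12 (adjusted p = 0.49) and at 0.40 with median centring. Il1b, the gene of interleukin-1 beta, stood at -0.55 ± 0.10 (adjusted p = 0.12). The interleukin-1 family members Il1a (-0.88 ± 0.14) and Il1f9 (-0.67 ± 0.10) came closest (adjusted p = 0.076 and 0.077). Il1f6, which is outside that list and was dark at rest in both genotypes, passed in the lower direction, with a basal ratio that rests on dark spots. It was tested only because of its LPS arrays. Its level rose at least 12.3-fold in wildtype and at least 5.73-fold in knockout cells.

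Among 23 chemokines, Cxcl3, a neutrophil attractant, was the single call. Wildtype levels were 6.73 and 6.84 at rest and 12.70 and 12.48 after LPS, and knockout levels 6.95 and 6.79 and then 11.56 and 11.48. The genotypes were alike at rest, and the knockout was lower on both LPS arrays. The difference was -1.16 ± 0.13 (limma adjusted p = 0.027), between responses of 5.81 ± 0.12 and 4.65 ± 0.11. Ccl24, an eosinophil attractant of alternatively activated macrophages, was larger but missed narrowly at 1.57 ± 0.21 (adjusted p = 0.051). The chemokine list's median was 0.06.

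Several lists without a call had most members on one side of 0. Of 42 cell cycle and DNA replication genes, 34 lay below 0, with a median of -0.29, and both LPS ratios were below both basal ratios in 27, which held for 21.5% of all genes. Cdc20 and Cdk1, both drivers of mitosis, stood at -0.73 ± 0.15 and -0.67 ± 0.13 (limma adjusted p = 0.14 and 0.13), but the 2 other probes of Cdk1 gave 0.09 and -0.49. Of 21 unfolded protein and stress response genes 16 lay below 0, with a median of -0.32 and 13 without overlap. Asns, an amino acid synthesis gene, was at -0.61 ± 0.14, and Atf4, the factor that controls it, at -0.40 ± 0.09 (adjusted p = 0.19 and 0.20), with -0.04 by its other probe. MHC class I genes had a median of 0.21 (0.10 without basal replicate 2), with H2-T23 at 0.50 ± 0.14 and B2m at 0.44 ± 0.10 (adjusted p = 0.27 and 0.18). Guanylate-binding proteins and immunity-related GTPases had a median of 0.18 and 0.32 with median centring, led by Irgm2 at 0.64 ± 0.14 (adjusted p = 0.16). Neither list held a call.

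The lists that describe LPS signalling itself held 0 calls, where 0.403% of all genes were called. NF-kappaB and its feedback had a median of -0.02 over 24 genes, TLR4 and its adaptors -0.03 over 17, MAP kinase feedback 0.06 over 19 and immediate-early factors -0.05 over 23, beside -0.002 for all genes. The leading members of these lists went both ways. Irak3, a brake on TLR signalling, was at -0.40 ± 0.10, Tlr4 at -0.57 ± 0.15 and the ERK phosphatase gene Dusp6 at -0.59 ± 0.11 (limma adjusted p = 0.20, 0.26 and 0.12). Ier3 was at -0.71 ± 0.11 (adjusted p = 0.083). Above 0 lay Nfkbiz at 0.40 ± 0.09, Ticam2 at 0.22 ± 0.10, Dusp1 at 0.94 ± 0.25 and Nr4a2 at 0.63 ± 0.11 (adjusted p = 0.19, 0.515, 0.247 and 0.115). Of the 74 genes with a symbol, 18 belonged to a list and 56 to none.

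**Figure D5:**
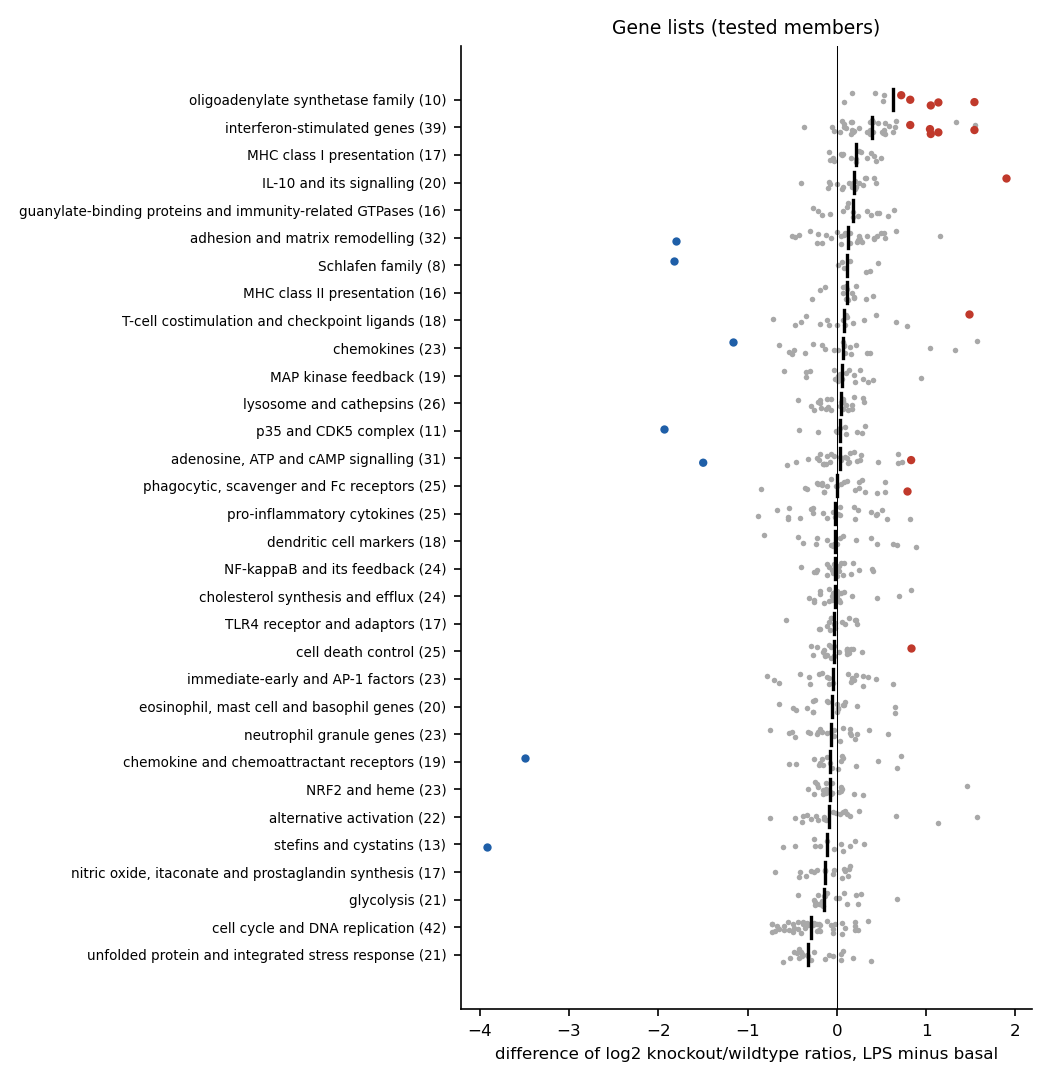
Difference of log2 knockout to wildtype ratios, LPS minus basal, for the tested members (number in brackets) of 32 gene lists, ordered by their median (black bar). Grey points did not pass the limma threshold and coloured points did (red higher, blue lower); the oligoadenylate synthetase and interferon lists lie to the right, the cell cycle and unfolded protein lists to the left, and most calls elsewhere are single genes.

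Among genes dark in some group, the largest differences were those of Spo11, Ttc36, Il10, Arhgap19 and Olfr1303. Spo11, known for making meiotic DNA breaks, was at least 5.51-fold higher in knockout than wildtype cells after LPS and rose at least 6.57-fold in knockout cells, with LPS ratios of 2.59 and 2.33. It was well above background in knockout cells after LPS alone, so it was tested only because of that group, and no fitted difference is given. Ttc36 rose at least 5.43-fold in knockout and at least 1.31-fold in wildtype cells, where 1 of 2 LPS arrays was well above background. Arhgap19, a GTPase-activating gene, was at least 4.07-fold higher in the knockout after LPS, and its other probe, well above background in 2 of 8 channels, is not informative. Olfr1303 was at least 3.53-fold higher there. Ttc36 and Olfr1303, like Spo11, were tested only because of knockout cells after LPS, the group in which they are high. Of 330 tested olfactory receptor genes 4 were called, 3 of them higher. Of all genes 0.403% were called, with 66 of those 95 higher.

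On the lower side, Sult1d1, a sulfotransferase gene, was at least 3.27-fold higher in knockout cells at rest and at least 1.28-fold higher after LPS. Ndp, which encodes the Wnt-pathway ligand norrin, was at least 2.80-fold higher in the knockout at rest and rose at least 2.03-fold in wildtype cells. Gm10714 and Olfr770 were at least 1.92-fold and 2.61-fold higher in the knockout at rest. Gm10714 was tested only because of knockout cells at rest, its one group well above background. The wildtype channel of all 4 genes was dark at rest, so these are bounds and no difference between conditions is given.

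The labelled cell type was checked against fixed markers. Of 12 macrophage markers 11 were tested, and all 11 were well above background in every channel, as were 9 of 9 tested dendritic cell markers. The same held for 9 of 9 eosinophil, 9 of 11 neutrophil and 6 of 8 mast cell or basophil markers. It held for 18389 of all 23568 genes, so these counts cannot tell the cell types apart. No marker of any of 10 cell types passed the interaction, where 0.403% of all genes did. Neutrophil markers summed to a lower level in the knockout in both conditions, at 103392 to 165429 in wildtype and 47557 to 77740 in knockout cells at rest, and 290028 to 327292 against 106983 to 109803 after LPS. Their median difference was -0.03, and members went both ways. S100a8, S100a9 and Ltf lay between -0.54 and -0.47, while Mpo stood at 0.58, Camp at 0.23, Ngp at 0.15 and Retnlg at 0.07. The sums weigh bright markers most, and not every marker was lower: the ratio of Cxcr2 was 0.00 at rest and that of Mpo 0.39 under LPS. Ly6g was not matched. Eosinophil markers also summed to a lower level in the knockout. At rest the sums were 89219 to 104392 in wildtype and 73119 to 76305 in knockout cells. After LPS they were 66297 to 72293 against 40822 to 49406, and the median difference was -0.11. Again not every marker was lower: the ratio of Siglecf was 0.36 at rest and -0.29 under LPS. That of Ccr3 was -0.18 and -0.11. Fewer cells of a type and less RNA per cell cannot be told apart in bulk RNA, and the part of other cell types in the results was not tested.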

How the data were processed

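The deposited scanner files give each spot's median foreground and background intensity per channel, made with Agilent Feature Extraction (version 9.3.2.1 in the submitters' processing notes and 11.5.1.1 per the file headers). The authors' deposited value table holds log2 ratios of the processed signals and was an alternative. No batch term was fitted, since the headers give 1 slide and 1 scan for all arrays. Of 44397 spots per array, 1377 were controls, and 207 to 255 probe spots were outliers left out. 68.3% to 71.0% of probe spots were well above background in Cy3 and 62.1% to 65.0% in Cy5, and 0 were saturated. The number of arrays limits the precision.

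In limma 3.58.1 (R 4.3.3), normexp (offset 50) and loess within arrays gave log2 ratios, and Aquantile set levels across arrays. Probes with a channel well above background on 2 or more arrays were kept (28633), and the brightest stood for its gene. Symbols came from the RefSeq table of GRCm38.p6 by accession: 27508 of 39429 probes matched. The headers name mm9, so coordinates are given only for RefSeq windows. Fits used lmFit and eBayes, two-sided, with Benjamini-Hochberg adjustment over 23568 genes, and were tested on simulated data. All adjusted p-values are limma's. A bound ("at least") divides the bright group's mean by the dim probe's own signal or the lowest signal well above background, whichever is higher, and can carry dye bias.

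The members and gene lists were chosen with earlier results of these data known. Genes were named by rule: Cdk5r1, Cdk5, Il10, Tnf, Il6 and Il1b; the 15 largest calls per direction above background throughout; the leading members of each list; sign changes; and the 5 largest calls per direction with a dark group. Rtp4, Isg15, Ifit1, Irf7, Stat2, Xaf1, Oas1f, Oas1g and H1f4 were added after their values were seen.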

Additional observations from a re-analysis of the deposited data

Results flagged for a closer look

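For 95 genes the knockout effect differed between LPS and basal arrays by a test of the difference itself (limma adjusted p under 0.05, 0.403% of the genes tested). In 3 genes with a symbol the knockout effect also passed in each condition with opposite signs. The difference of log2 ratios was 1.48 for Havcr2, 1.05 for Cnn3 and 1.05 for Oasl1, each lower in the knockout at rest and higher after LPS on both arrays of the condition. The knockout was always labelled with Cy5, so the zero of each ratio carries the probe's dye effect. A constant offset shifts the ratios of both conditions alike and cancels in the difference. It can still decide whether differing ratios fall on opposite sides of 0, so the change of sign itself is open to it.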

How the results depend on the processing

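For the interaction (95 calls), the processed signals gave 6, the deposited value table gave 8, median centring 228, and genes above background throughout 19 (11 higher, 8 lower, of 53 with a value). Leaving out 1 array gave 4 to 198. The replicate block gave 58. Deviations of same-numbered arrays correlated at -0.16, and at 0.16 with the numbers crossed. With 2 arrays per condition this is 1 value with its sign turned. It cannot tell whether equal numbers mark a shared culture or animal. A crossed block, added after seeing the data, gave 367. All genes with a value kept their sign in each of these settings. Leaving out 1 array or adding a block could not change it, since the ratios of the conditions did not overlap in any of the 95. For the knockout effect at rest (1148), median centring gave 4459 (3812 higher), the stricter background filter 704, and leaving out 1 array 708 to 775. Under LPS (2922), the processed signals gave 1722, the value table gave 1740, median centring 5491 (4632 higher against 1690 in the loess fit), and leaving out 1 array 410 to 3145. For the LPS response, scaling to the 75th percentile gave 15768 in wildtype (9633) and 14888 in knockout cells (9634), and leaving out 1 array 5191 to 8678 and 3891 to 9484. The difference reversed for Cdk5 (-0.055 to 0.041 with 1 array left out, above 0 without basal replicate 2), Oas1g (-0.052 to 0.218, below 0 without LPS replicate 1), and, with median centring, Tnf (0.052), Il6 (0.396) and Acod1 (0.081), none past the threshold. The cause was not tested. Signal over background limits the 37 calls with a dark group.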
